A study of Mus musculus with 3 samples.

Results

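Bidirectional promoters are stretches of DNA that lie between the 5' ends of 2 genes transcribed away from each other. They were taken here as pairs of protein-coding genes of the mouse annotation on opposite strands whose 5' ends lie at most 1000 bp apart. The rule found 755 pairs with 1489 genes, which is 6.79% of 21938 protein-coding genes, and the promoters of the other 20449 genes served as the comparison. The data are DNase-seq libraries of natural killer cells, lymphocytes of the innate immune system that kill infected and transformed cells. The 3 libraries form 1 group, primary cells of adult virgin male B6CASTF1/J mice (a C57BL/6 by CAST first-generation cross) aged 2 months, with no treatment named. The 3 share a donor label but differ in their biosample labels, and no sort or gate is named. Any error given here is the spread over these libraries, which could be technical in part or whole.

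In mammals, such promoters are typically rich in CpG dinucleotides and poor in TATA boxes, and many serve genes that most cells use, such as those of DNA repair, mitochondria and RNA processing. A single nucleosome-free region between the genes can hold the binding sites that start transcription in both directions. DNase-seq maps where DNA is open: the enzyme DNase I cuts accessible chromatin, a peak is a stretch with many cuts, and a footprint is a short protected stretch within it, of the kind a bound protein leaves.

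A pair was examined over a window from 500 bp beyond the one 5' end to 500 bp beyond the other, and another promoter over 500 bp on each side of its 5' end. A promoter is called open below where at least 1 bp of a peak fell in its window. The height of a peak is given as its percentile by deposited signal among all peaks of its library, since the scale of the signal is not stated. Replicates 1, 2 and 3 held 40484, 84564 and 81854 peaks and 101990, 239483 and 222990 footprints, so that replicate 1 had the fewest of both, and read depth is unknown. Of 10 natural killer markers, 7 promoters were open in replicate 1 and 9 in each of replicates 2 and 3. The promoters of T cell markers were open in 1, 6 and 5 of 8, with Cd4 and Cd8a closed in all 3 replicates, those of B cell markers in 6, 8 and 7 of 8, those of myeloid markers in 2, 2 and 2 of 8, and those of erythroid markers in 0 of 5 throughout. None of these markers belongs to a pair, and the part of other cells in the results below was not tested.

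The distance between the 5' ends was short in most pairs: its median was 129 bp, the quartiles were 66.5 and 240 bp, and 82.0% of pairs lay within 300 bp. Pairs were found on 20 chromosomes, with 68 pairs on chromosome 11 and none on Y. Per 100 protein-coding genes, chromosome 8 held the most genes of pairs (10), chromosome 11 held 8.30 and X held 4.22. A gene in more than 1 pair counted here for each of its pairs. Only 21 genes belonged to more than 1 pair. The sequence between the 5' ends is printed below for 6 pairs of the sets that follow, to show where footprints lay in pairs with high peaks and how much this differed between pairs. The sequences are those of the C57BL/6J reference (GRCm38/mm10, plus strand), while the mice also carried a CAST genome. Capitals mark bases that lay in footprints of all 3 libraries, and positions are counted from 1 at the first base printed. No annotated exon overlaps any of these stretches.

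The pair with the highest mean percentile over the libraries was that of Dnajb4, a co-chaperone of HSP70, and Fubp1, which binds single-stranded DNA upstream of Myc, at chr3:152210303-152210421. Its footprints covered TCTCGCGA, the motif of ZBTB33 (Kaiso), at position 42 and a CCAAT box, the motif of the factor NF-Y, at position 104.
Dnajb4/Fubp1: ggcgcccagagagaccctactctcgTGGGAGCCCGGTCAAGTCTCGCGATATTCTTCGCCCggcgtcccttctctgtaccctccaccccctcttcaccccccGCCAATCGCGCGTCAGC
Rita1, which binds the Notch effector RBPJ, and Ddx54, an RNA helicase, face away from chr5:120612590-120612738. Footprints covered 57.0% of this stretch, including all 8 bases of a GC box, the motif of SP1, at position 83.
Rita1/Ddx54: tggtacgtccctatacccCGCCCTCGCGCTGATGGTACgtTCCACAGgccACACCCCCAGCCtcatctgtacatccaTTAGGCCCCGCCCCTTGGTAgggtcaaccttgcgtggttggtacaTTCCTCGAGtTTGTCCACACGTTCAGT
Tepsin, an accessory protein of the AP-4 vesicle coat, and Ndufaf8, an assembly factor of respiratory complex I, share chr11:120098732-120098927, where the CCAAT boxes at positions 72 and 112 lay in footprints of all 3 libraries and the one at position 22 did not.
Tepsin/Ndufaf8: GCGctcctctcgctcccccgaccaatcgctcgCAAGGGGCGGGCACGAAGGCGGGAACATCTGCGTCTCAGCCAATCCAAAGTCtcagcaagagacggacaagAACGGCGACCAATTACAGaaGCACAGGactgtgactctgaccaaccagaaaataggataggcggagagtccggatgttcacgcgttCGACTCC
Usp5, a deubiquitinase, and Cdca3, which acts in entry into mitosis, share chr6:124829485-124829546. Its footprint held GCGCATGC, the motif of NRF1, at positions 6 and 8, which is 1 palindromic site read on both strands.
Usp5/Cdca3: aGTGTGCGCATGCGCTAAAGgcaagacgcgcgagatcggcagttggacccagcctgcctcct
Cenpp, a centromere protein, and Nol8, a nucleolar protein, share chr13:49652786-49653077, where 1 of 3 matches to the core of the cyclic AMP response element (CRE), at position 224, lay in footprints of all 3 libraries.
Cenpp/Nol8: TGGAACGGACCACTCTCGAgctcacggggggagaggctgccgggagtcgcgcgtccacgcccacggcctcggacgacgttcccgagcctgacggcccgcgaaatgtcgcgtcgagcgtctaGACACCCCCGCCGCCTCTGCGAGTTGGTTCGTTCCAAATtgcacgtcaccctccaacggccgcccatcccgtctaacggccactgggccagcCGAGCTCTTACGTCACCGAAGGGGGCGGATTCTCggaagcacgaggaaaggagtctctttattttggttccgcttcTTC
Ddx5, an RNA helicase of splicing and miRNA processing, and Cep95, a centrosomal protein, share chr11:106789186-106789251. No base of this stretch lay in footprints of all 3 libraries, although its peak was among the highest. The stretch held 0, 1 and 1 footprints in replicates 1, 2 and 3, and the whole window of the pair held 10, 16 and 12.
Ddx5/Cep95: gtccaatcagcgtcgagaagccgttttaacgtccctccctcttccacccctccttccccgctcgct

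Nearly all bidirectional promoters were open. Of the 755 pairs, 93.0%, 94.4% and 94.3% were open in replicates 1, 2 and 3, against 44.4%, 51.7% and 50.9% of the 20449 other promoters. Over all protein-coding genes, 47.6%, 54.5% and 53.8% of promoters were open in the 3 replicates. The mean share was 93.9 ± 0.806% in pairs and 49.0 ± 4.01% in other promoters (SD, n = 3 libraries), a difference of 44.9 ± 3.20 percentage points that had the same direction in 3 of 3 libraries. With 3 libraries an exact two-sided sign-flip test cannot go below p = 0.25, which is the value it gave here. It gave the same value for the differences below in CpG-weighted open share, peak percentile, footprints and peaks per window, footprints per 100 bp of peak and bases upstream of the 5' end. The differences by range of CpG ratio or peak height, by gene list and by motif were not tested.

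In all 3 replicates together, 700 pairs (92.7%) were open, against 8982 other promoters (43.9%) and 47.2% of the promoters of all protein-coding genes. A further 18 pairs were open in some replicates and 37 (4.90%) in none, against 9552 other promoters (46.7%) in none. Both genes shared the opening as a rule: taken over 500 bp on each side of its own 5' end, each gene was open in all 3 replicates in 688 pairs, and just 1 of the genes was in 12 pairs. Such stretches of the genes of a pair overlap.

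**Figure D1:**
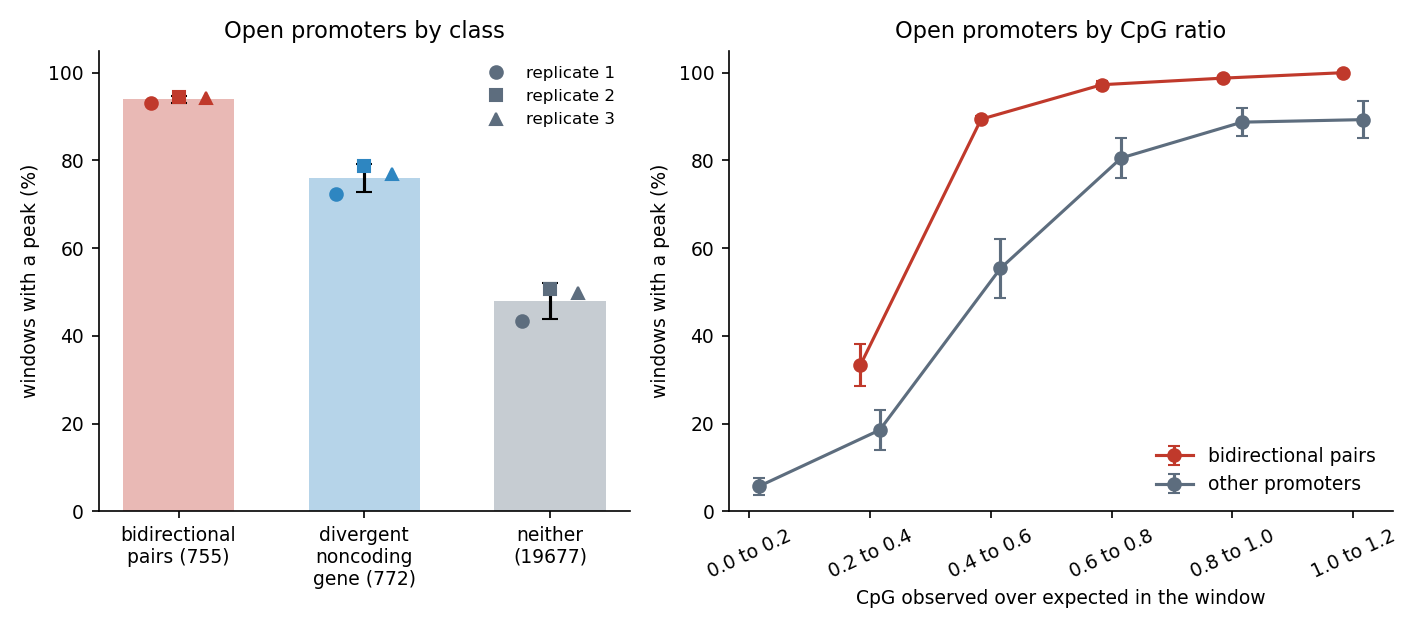
Left, share of promoter windows with a peak (%) in bidirectional pairs, in other genes with a divergent noncoding gene and in the remaining genes; points are replicates, bars their means and whiskers 1 SD (n = 3). Right, the same share by CpG ratio of the window, as mean and SD over replicates: pairs lie above other promoters in each range with at least 20 pairs, from 33.3% against 18.5% at 0.2 to 0.4 to 100% against 89.3% at 1.0 to 1.2.

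Pairs were also richer in CpG, and CpG-rich promoters were open more often in both classes. The ratio of observed to expected CpG had a median of 0.769 in the windows of pairs and 0.512 in those of other promoters, and GC content was 59.7% and 54.2%. At a ratio from 0.4 to 0.6, 89.4 ± 0.656% of 88 pairs were open, against 55.4 ± 6.74% of 2912 other promoters. From 0.6 to 0.8 the shares were 97.3 ± 0.914% of 316 pairs and 80.6 ± 4.58% of 4978 other promoters. From 0.8 to 1.0 they were 98.8 ± 0.520% of 294 pairs and 88.7 ± 3.18% of 3493 other promoters. With other promoters weighted to the CpG ratios of the pairs, the difference was 15.7 ± 3.43 percentage points (93.9% in pairs, 78.2% in other promoters). This is smaller than the unweighted 44.9 points.

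Some of the other promoters also had a divergent partner, a noncoding gene with its 5' end within the same distance. Of the 772 such promoters, 76.0 ± 3.22% were open, between 93.9% of pairs and 47.9 ± 4.04% of the 19677 other promoters without such a noncoding gene. Their median CpG ratio, 0.761, was close to the 0.769 of pairs and above the 0.493 of promoters without such a noncoding gene. Their footprints numbered 7.16 ± 1.04 per open window, against 8.71 ± 1.46 in pairs, whose windows are longer, and 5.91 in promoters without such a noncoding gene. Per 100 bp of peak they numbered 1.62 ± 0.119, 1.75 ± 0.161 and 1.47 ± 0.122 in the same order. Other genes whose start overlapped that of a protein-coding gene on the opposite strand stayed in the comparison. With these left out, an alternative added after seeing the data, a mean of 47.2% of 19556 other promoters were open.

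The peaks in open pairs were high. The strongest peak of an open window had a median percentile of 91.3, 95.6 and 95.4 in pairs in replicates 1, 2 and 3, against 83.1, 89.4 and 88.8 in other promoters, a difference of 7.003 ± 1.03 percentile points. Of windows open in all 3 replicates, 55.7% of pairs exceeded percentile 90 in every replicate, against 32.3% of other promoters. The percentiles of the 700 open pairs had a Spearman correlation of 0.989 between replicates 2 and 3, and of 0.921 and 0.920 between replicate 1 and these, given as a description across promoters.

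Footprints were more numerous too. An open pair held 7.06, 9.81 and 9.26 footprints in replicates 1, 2 and 3, against 5.07, 6.59 and 6.29 in other promoters, a difference of 2.72 ± 0.651 per window. Per 100 bp of peak the values were 1.57, 1.87 and 1.81 in pairs and 1.34, 1.55 and 1.54 in other promoters, a difference of 0.272 ± 0.0441. Footprint density moved with peak height: among windows whose strongest peak lay from percentile 75 to 90 it was 1.55 ± 0.160 per 100 bp in pairs and 1.59 ± 0.121 in other promoters, and from percentile 95 to 98 it was 1.95 ± 0.0975 in pairs and 1.87 ± 0.0304 in other promoters. Within libraries, the density of pairs minus that of other promoters was -0.0397 ± 0.0405 from percentile 75 to 90, 0.0745 ± 0.0334 from 90 to 95, 0.0864 ± 0.0695 from 95 to 98 and -0.0497 ± 0.0914 from 98 up. It was positive in 3 of 3 libraries from 90 to 98 and smaller in each range than the 0.272 over all open windows. The number of footprints per window, in contrast, was higher in pairs in 3 of 3 libraries in each range of height from percentile 75 up, for example 8.70 ± 0.957 in pairs and 7.38 ± 0.676 in other promoters from percentile 90 to 95, a difference of 1.32 ± 0.282. An open pair held 1.47 peaks and an open other promoter 1.37, a difference of 0.0971 ± 0.0324 that turned to -0.00404 when each gene was taken over a window of the same width; the windows of pairs are longer.

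Genes of pairs were more open than other genes upstream of the 5' end, while downstream the difference was small. Over the 500 bp upstream, 88.7%, 93.7% and 93.0% of bases had a cut rate at a false discovery rate (FDR) of 0.05 or less in the 1368 genes of pairs open in all 3 replicates, against 62.2%, 73.9% and 72.6% in the 8982 other open genes. The difference was 22.2 ± 3.71 percentage points upstream and 0.120 ± 1.40 points downstream, where the exact sign-flip p was 1. Footprints covered 17.6 ± 3.63% of the upstream bases in genes of pairs and 11.0 ± 2.74% in other genes, a difference of 6.54 ± 0.891 points. Downstream they covered 8.07 ± 2.31% in genes of pairs and 8.26 ± 2.22% in other genes. In each class the share peaked just upstream of the 5' end, at 41.4% of bases in genes of pairs and 30.6% in other genes. Most of the 500 bp upstream of a gene in a pair is the region downstream of its partner's 5' end where that distance is short.

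**Figure D2:**
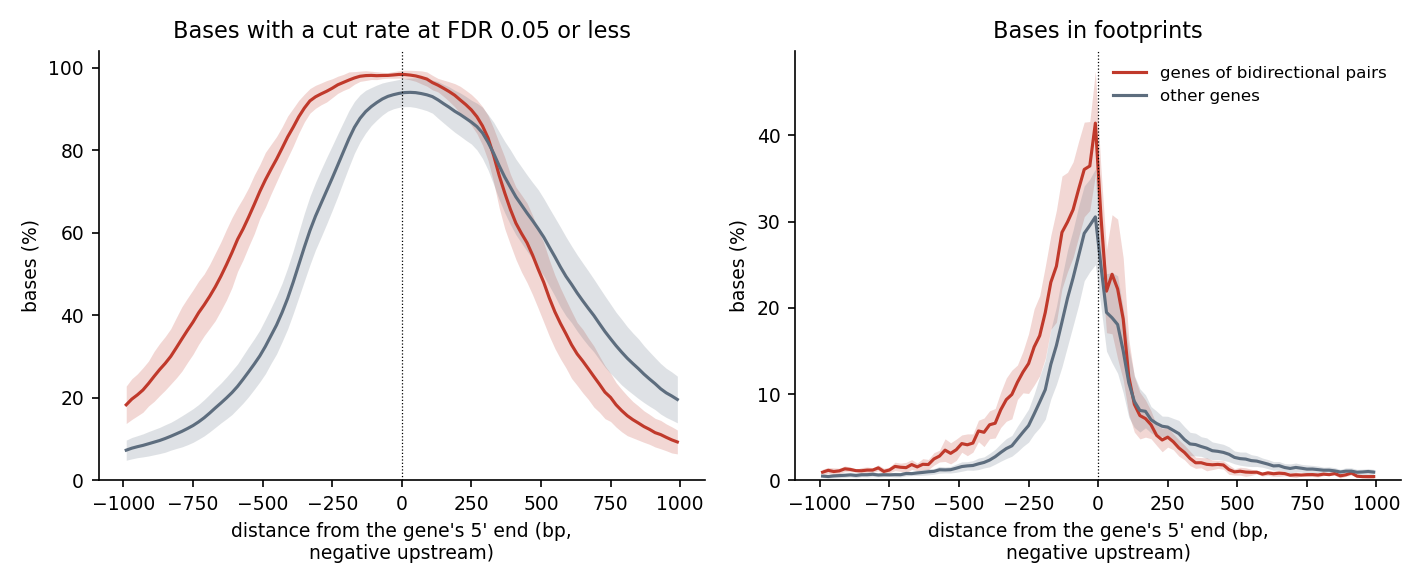
Share of bases (%) with a cut rate at FDR 0.05 or less (left) and in footprints (right) by distance from the gene's 5' end in 20 bp steps, for 1368 genes of bidirectional pairs and 8982 other genes open in all 3 replicates; lines are means and bands 1 SD over 3 replicates. Genes of pairs lie above other genes upstream, and footprint bases peak at 41.4% in genes of pairs and 30.6% in other genes.

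The middle of the strongest peak lay between the 5' ends in 63.9 ± 4.62% of open pairs. Where the ends lay within 100 bp of each other, it did so in 46.9 ± 6.20%. Along the genome its median offset from the midpoint of the 5' ends was -0.333 ± 3.25 bp, a value in which shifts to either side cancel. It lay within 100 bp of the midpoint in 71.3 ± 3.99% of open pairs, a range that reaches past close 5' ends. It lay upstream of the own 5' end in 81.9 ± 2.31% of genes of pairs and in 59.0 ± 3.10% of other genes. The peak of a pair was counted for each of its genes, and beyond one 5' end it is still upstream of the partner gene. The share in pairs therefore has a floor that the share in other genes lacks, and part of this difference is set by the counting. The strongest peak covered both 5' ends in 56.0 ± 0.907% of open pairs. Its median width was 260, 220 and 220 bp in replicates 1, 2 and 3 in pairs and the same in other promoters.

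The layout changed with the distance between the genes. Where the 5' ends lay within 100 bp, the strongest peak covered both in 84.3 ± 1.91% of open pairs, and an open window held 1.34 ± 0.0352 peaks. From 200 to 300 bp it covered both in 29.4 ± 3.42%. From 500 to 1000 bp, further than the median peak is wide, it covered both in 0% of pairs, and an open window held 2.04 ± 0.144 peaks. The number of footprints per open window was 7.67 ± 1.29 within 100 bp, 8.76 ± 1.38 from 100 to 200 bp, 9.52 ± 1.62 from 200 to 300 bp, 10.8 ± 1.76 from 300 to 500 bp and 10.3 ± 1.94 from 500 to 1000 bp. Neighbouring values differ by less than the spread between replicates, while each replicate on its own showed this order. A window is longer by the distance between the 5' ends, and counts of peaks and footprints per window can grow with its length. The part of window length in these differences was not tested. Between the 5' ends, footprints numbered 2.32 ± 0.0721 per 100 bp in the closest pairs and 0.738 ± 0.120 in the widest.

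The share of open pairs was lowest among the widest. It was 96.2 ± 0.553% of 313 pairs within 100 bp, 92.9 ± 1.40% of 206, 94.0% of 100 and 96.0 ± 0.875% of 66 in the ranges between, and 84.8 ± 1.65% of 70 pairs from 500 to 1000 bp. Just inside the limit, at 800 to 1000 bp, 13 of 16 pairs were open in all 3 replicates, and just outside it, at 1000 to 1200 bp, 15 of 20 were.

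**Figure D3:**
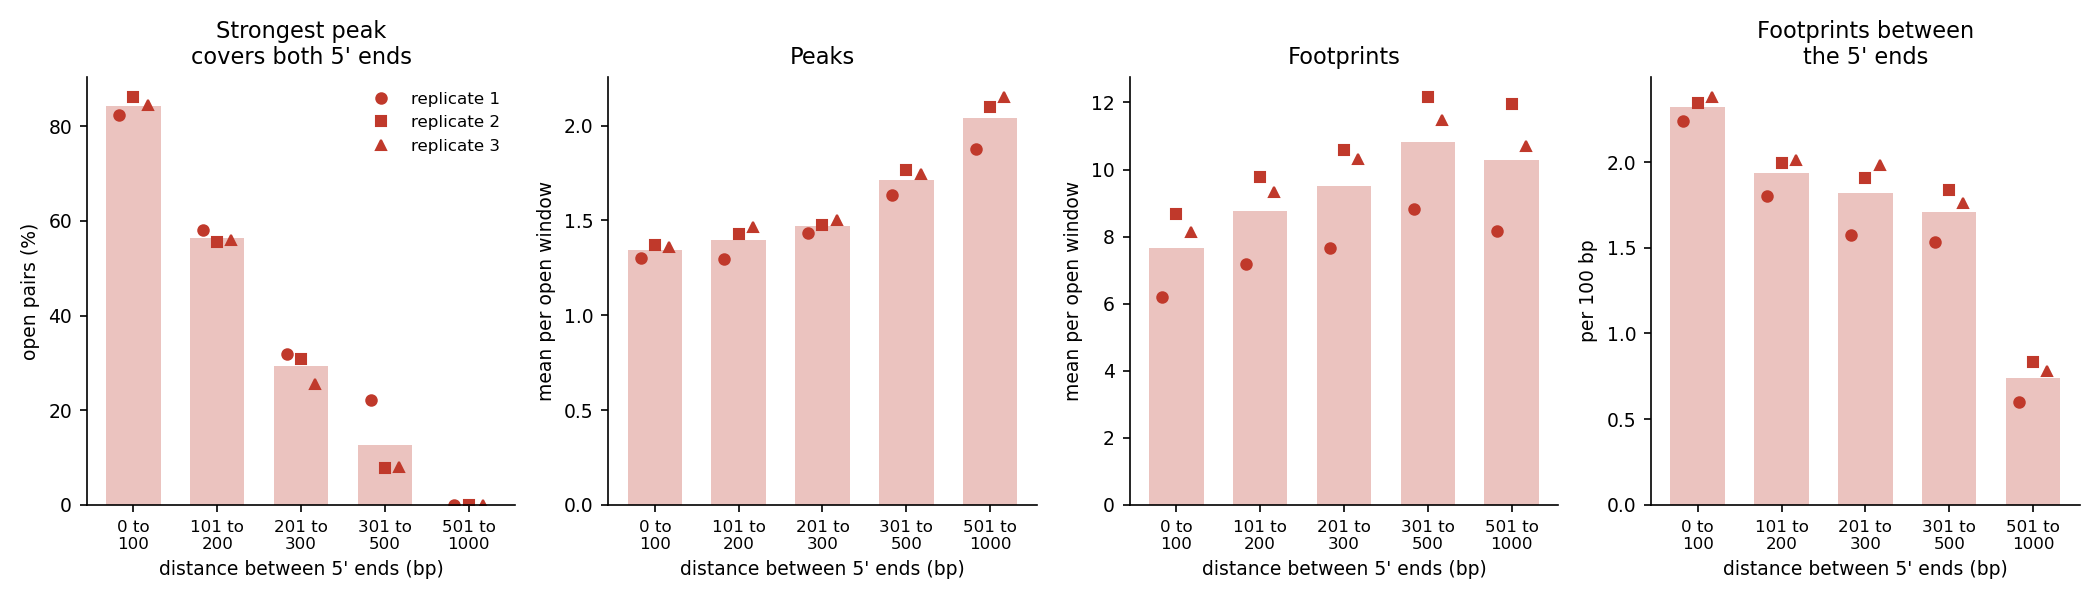
Bidirectional pairs by the distance between their 5' ends (bp): share of open pairs whose strongest peak covers both 5' ends (%), peaks per open window, footprints per open window and footprints per 100 bp between the 5' ends. Bars are means over 3 replicates and points the replicates. Coverage of both ends is 84.3% within 100 bp and 0% beyond 500 bp. Peaks per open window are 1.34 and 2.04, and windows lengthen with the distance.

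The highest peaks stood at pairs of varied function. Dnajb4/Fubp1 reached percentiles 99.89, 99.95 and 99.98 in replicates 1, 2 and 3, with 6, 8 and 10 footprints in its window. Nfya, which encodes a subunit of the CCAAT-binding factor NF-Y, and Oard1, a hydrolase that removes ADP-ribose from proteins, reached 99.82, 99.97 and 99.94, with 17, 21 and 18 footprints. Rita1/Ddx54 reached 99.79, 99.97 and 99.93, with 18, 17 and 23 footprints. Also among the highest were Aamp/Pnkd, Fbh1/Ankrd16, Pdcd10/Serpini1 and Dcaf6/Mpc2, with mean percentiles from 99.86 to 99.91. The most footprints were counted at Cbx5, which encodes the heterochromatin protein HP1 alpha, and Hnrnpa1, a splicing regulator, with 17, 30 and 30, at B3galt6/Sdf4, with 17, 24 and 29, and at Cdca2/Kctd9, with 21, 22 and 24. Replicate 1 had the fewest footprints at each of these 3 pairs, as it did overall.

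Among pairs open in all 3 replicates, 3 stayed under percentile 50 in every replicate. Nup62cl/Pih1h3b on X was lowest, with percentiles 3.05, 7.24 and 12.1 and 0, 0 and 3 footprints. Tmtc3 and Cep290, a protein of the ciliary transition zone, had percentiles 8.16, 29.9 and 20.3. Grik5, a subunit of kainate glutamate receptors, and Zfp574 had 28.6, 41.6 and 35.2.

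Gene lists chosen by function took very different shares in pairs. Of replication-dependent histone genes 40.3% belonged to a pair, of DNA repair and replication genes 27.5%, of genes of RNA polymerase, splicing and RNA processing 20.4%, of mitochondrial genes 19.3% and of cell cycle and chromosome segregation genes 15.1%. Genes of cytosolic ribosomes and translation (10.7%), the proteasome and ubiquitin (10.53%) and one-carbon and nucleotide synthesis (8.33%) lay closer to the 6.79% of all protein-coding genes. Zinc finger genes had 5.58%. At the other end stood genes of extracellular matrix (2.25%), antigen processing and presentation (2.13%), killer lymphocyte and immune signalling (0.565%) and neural, sensory and epithelial functions (0.211%).

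Pairs from the lists of cell maintenance were nearly all open, as were pairs in general, of which 92.7% were open in all 3 replicates. All 50 mitochondrial pairs and all 14 cell cycle pairs were open in all 3 replicates, as were 47 of 48 DNA repair pairs, 67 of 69 RNA processing pairs, 21 of 22 translation pairs, 17 of 18 proteasome and ubiquitin pairs and 3 of 3 one-carbon pairs. Other promoters of the same lists were open in all 3 replicates in 87.7%, 93.7%, 89.5%, 86.4%, 85.9%, 75.8% and 84.8% of cases in the same order of lists, all well above the 43.9% of other promoters as a whole. Zinc finger pairs were open in 22 of 23 cases and other zinc finger promoters in 71.4%. Of the 4 pairs in the neural, sensory and epithelial list 3 were open, against 2.00% of its other promoters, and the sole matrix pair was closed, as were most other matrix promoters, of which 14.9% were open.

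**Figure D4:**
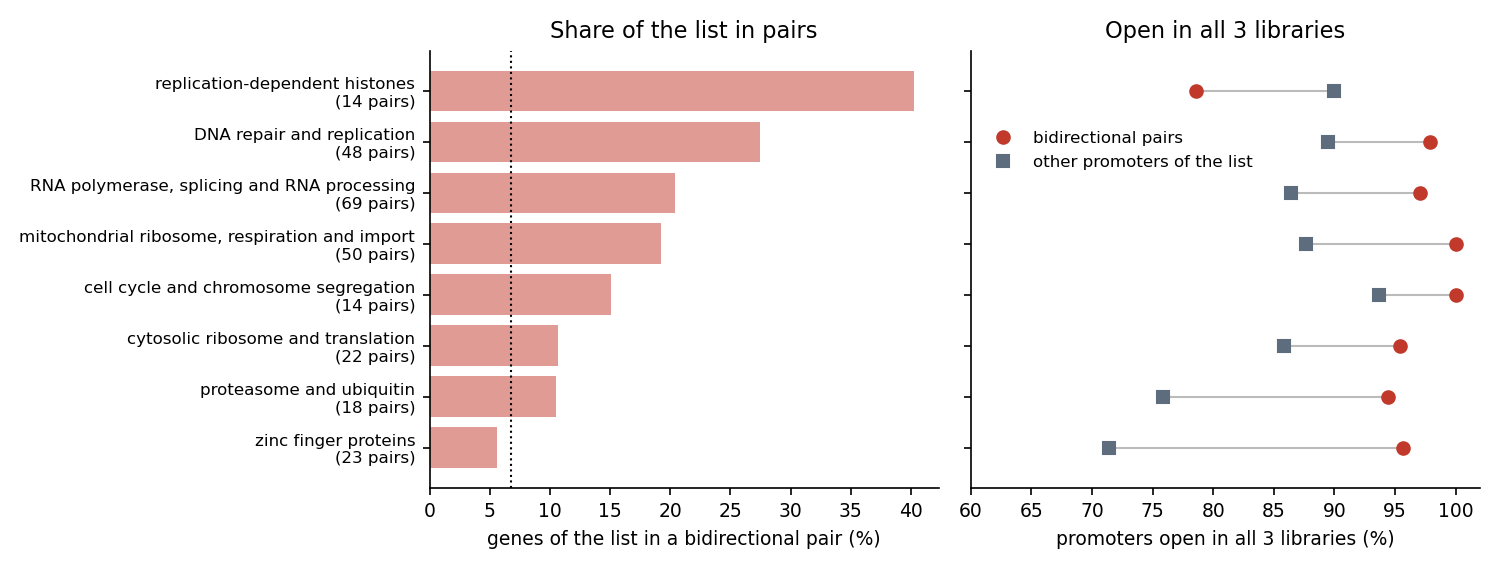
Left, share of the genes of each list that belong to a bidirectional pair (%), for lists with at least 10 pairs; the dotted line is the 6.79% of all protein-coding genes. Right, share of promoters open in all 3 replicates (%; the axis starts at 60) in pairs of the list and in its other promoters; pairs lie higher in each list but that of histones, with 78.6% of pairs and 90% of other promoters.

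The median percentile of the pairs open in all 3 replicates was 94.4 over all 700 pairs, 92.7 in DNA repair, 92.7 in proteasome and ubiquitin, 94.7 in mitochondria, 94.9 in translation, 95.1 in the cell cycle and 95.8 in RNA processing. The pairs given next are among the 3 highest of their lists. Atm, the kinase that signals double-strand breaks, and Npat, which activates histone gene transcription at the start of S phase, had percentiles 98.7, 99.6 and 99.7, with 8 footprints in each replicate. Xpc, which recognises DNA lesions for nucleotide excision repair, and Lsm3, a splicing protein, lie 40 bp apart and had 98.5, 99.1 and 99.1. In mitochondria, Tepsin/Ndufaf8 had 99.96, 99.72 and 99.79. Mrps18b, a protein of the mitochondrial ribosome, and Ppp1r10, a regulatory subunit of protein phosphatase 1, had 98.8, 99.5 and 99.6. Med22, a Mediator subunit, and Rpl7a, a protein of the large ribosomal subunit, had 99.0, 99.5 and 99.3. Replicate 1 gave the lowest percentile in these pairs except at Tepsin/Ndufaf8. At Mrps18b/Ppp1r10 no peak lay within 250 bp of the 5' ends in at least 1 replicate. Gart, an enzyme of purine synthesis, and Son, a splicing cofactor, had lower values of 91.8, 96.7 and 96.8.

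Some open pairs join a widely used gene to one known from a single tissue. Rad51c, which acts in homologous recombination, shares its promoter with Tex14, needed for bridges between germ cells, and had percentiles 98.2, 99.2 and 99.4, although in at least 1 replicate no peak lay within 250 bp of the 5' ends. Uqcrq, a subunit of respiratory complex III, shares one with the oocyte factor Gdf9 and had 98.6, 99.5 and 99.3. Cdc27, a subunit of the anaphase-promoting complex, shares one with Myl4, a myosin light chain of the heart atrium, and had 99.7, 99.7 and 99.4. Nol9, which acts in ribosomal RNA processing, is paired with the taste receptor gene Tas1r1 and had 93.1, 95.5 and 95.2. Open DNA at a shared promoter does not say which of the genes is transcribed, and RNA was not measured.

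Immune genes were nearly absent. The sole pair of the killer lymphocyte list joined Tnfrsf9, which encodes the costimulatory receptor 4-1BB, to Park7, a protein of the oxidative stress response. It had percentiles 93.0, 97.0 and 97.6 and 4, 8 and 9 footprints, replicate 1 being lowest in both. The sole pair of the antigen presentation list, H2-T22/Gm6034, had 76.0, 88.9 and 90.3. H2-T22 is a nonclassical class I gene of a family of similar copies, so reads there may be shared among them.

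Histone genes made up the one list of 10 or more pairs in which fewer pairs than other promoters were open. Of 14 pairs, mostly an H2A gene beside an H2B gene, 11 (78.6%) were open in all 3 replicates and 3 in none, while 36 of 40 other histone promoters (90%) were open. Among the open ones Hist1h2bf/Hist1h2ad had percentiles 86.0, 94.1 and 94.2, and the median of the list was 86.2, against 94.4 for all pairs. The closed ones were Hist1h2bq/Hist1h2ao, Hist1h2ap/Hist1h2br and Hist1h2ba/Hist1h2aa. In the windows of the first 2 of these, 97.4% and 100% of stretches of 36 bases also occur in the window of another pair, and in the 11 open ones 9.89% to 57.1% do. Short reads from identical copies cannot be told apart, and the part of this in the missing peaks was not tested. Hist1h2ba/Hist1h2aa, the testis-specific H2B and H2A genes, had 14.2% of such stretches.

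The 37 closed pairs held fewer CpGs and included genes known from other tissues. Their median CpG ratio was 0.341, against 0.779 in the 700 pairs open in all 3 replicates. Bases at an FDR of 0.05 or less were found in 0, 0 and 2 of the 37 windows in replicates 1, 2 and 3, with at most 31 bp. The closed pairs included Col4a4/Col4a3, the collagen IV chains of the kidney's filtration barrier, and Bhmt2/Dmgdh, of which Dmgdh encodes an enzyme of choline breakdown. Aspa/Spata22, an enzyme of brain acetylaspartate beside a gene of meiosis, was another. In 12 of the 37 pairs a gene had a peak in all 3 replicates at another annotated start of its protein-coding transcripts: Rps2, a protein of the small ribosomal subunit paired with the gene Rnf151, and Dgcr2, paired with the testis kinase gene Tssk2, were among them. Among genes this is 12 of 74 in closed pairs (16.2%), against 676 of the 9552 other promoters closed in all 3 replicates (7.08%). For these pairs the 5' end given by the annotation was closed and another start of the same gene was open.

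The 18 pairs open in some replicates were open in replicates 2 and 3 in 9 cases, in replicate 2 alone in 4, in replicate 3 alone in 3 and in replicate 1 alone in 2. Nisch/Sema3g had percentiles 62.7 and 49.2 in replicates 2 and 3. Smyd1, a histone methyltransferase of heart and muscle, and the T cell gene Cd8b1 had a peak in replicate 2 alone, at percentile 40.8 with 7 footprints. Replicate 2 had the most peaks and the most open promoters over all genes, of T cell markers (6 of 8) and of B cell markers (8 of 8), and the part of these in the Cd8b1 peak was not tested.

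Motifs of several widely used factors were more frequent in the core promoters of pairs. Each motif was searched on both strands from 250 bp upstream to 50 bp downstream of each 5' end, and a site between close 5' ends counted for both genes. TCTCGCGA, the motif of ZBTB33, was in 5.24% of 1489 core promoters of pairs, 1.10% of other ones and 1.38% of all. AAGATGGCG, the motif of the factor YY1, was in 5.57% of pairs, 1.41% of other and 1.70% of all core promoters. CCGGAAGT, the motif of the ETS family that includes GABPA, was in 13.0% of pairs, 4.09% of other and 4.70% of all core promoters. On the log2 scale the ratio of pairs to other genes was 2.26 for ZBTB33, 1.98 for YY1 and 1.66 for ETS. Among CpG-rich promoters alone, with a ratio of 0.6 or more, the same 3 ratios were 1.30, 1.13 and 0.83.

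Other motifs of widely used factors were less skewed. GCGCATGC of NRF1 was in 6.72% of pairs, 3.49% of other and 3.71% of all core promoters, TGACGTCA of CREB in 4.50%, 2.28% and 2.43%, and the TGACG that is part of it in 42.6%, 21.7% and 23.1%. ACTACAA of ZNF143 was in 5.31% of pairs, 3.58% of other and 3.70% of all core promoters, CACGTG of USF and MYC in 11.4%, 7.49% and 7.75%, and the CCAAT box in 43.9%, 38.7% and 39.0%. The GC box GGGCGGGG was in 33.7% of pairs, 20.9% of other and 21.7% of all core promoters, and among CpG-rich promoters its log2 ratio was -0.07. AGGTGGC, part of the CTCF motif, was in 6.31% of pairs, 6.34% of other and 6.34% of all core promoters. Among CpG-rich promoters the log2 ratio was smaller for NRF1, 0.36 in place of 0.95, for CACGTG, 0.12 in place of 0.61, and for TGACG, 0.49 in place of 0.97. There it was 0.53 for ZNF143, 0.26 for the CCAAT box and -0.25 for CTCF.

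The TATA box and motifs of several factors that act in lymphocytes were rarer in pairs. TATAAA, the TATA box, was in 4.10% of pairs, 13.3% of other and 12.6% of all core promoters, with a log2 ratio of -1.70, and of -0.79 among CpG-rich promoters. TGTGGTT of RUNX factors, which act in lymphocytes, was in 2.28% of pairs, 5.29% of other and 5.09% of all core promoters, and TGACTCA of AP-1 in 1.95%, 4.78% and 4.59%. AGGTGTGA of the T-box factors, among them the natural killer regulators T-bet and Eomes, was in 0.940% of pairs, 1.21% of other and 1.19% of all core promoters, and the IRF motif (GAAANN followed by GAAA) in 2.82%, 3.599% and 3.55%. Among CpG-rich promoters the log2 ratio was -0.74 for RUNX and -0.55 for AP-1, while for T-box and IRF motifs it turned to 0.03 and 0.05. A match to such letters does not show that the factor was bound.

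**Figure D5:**
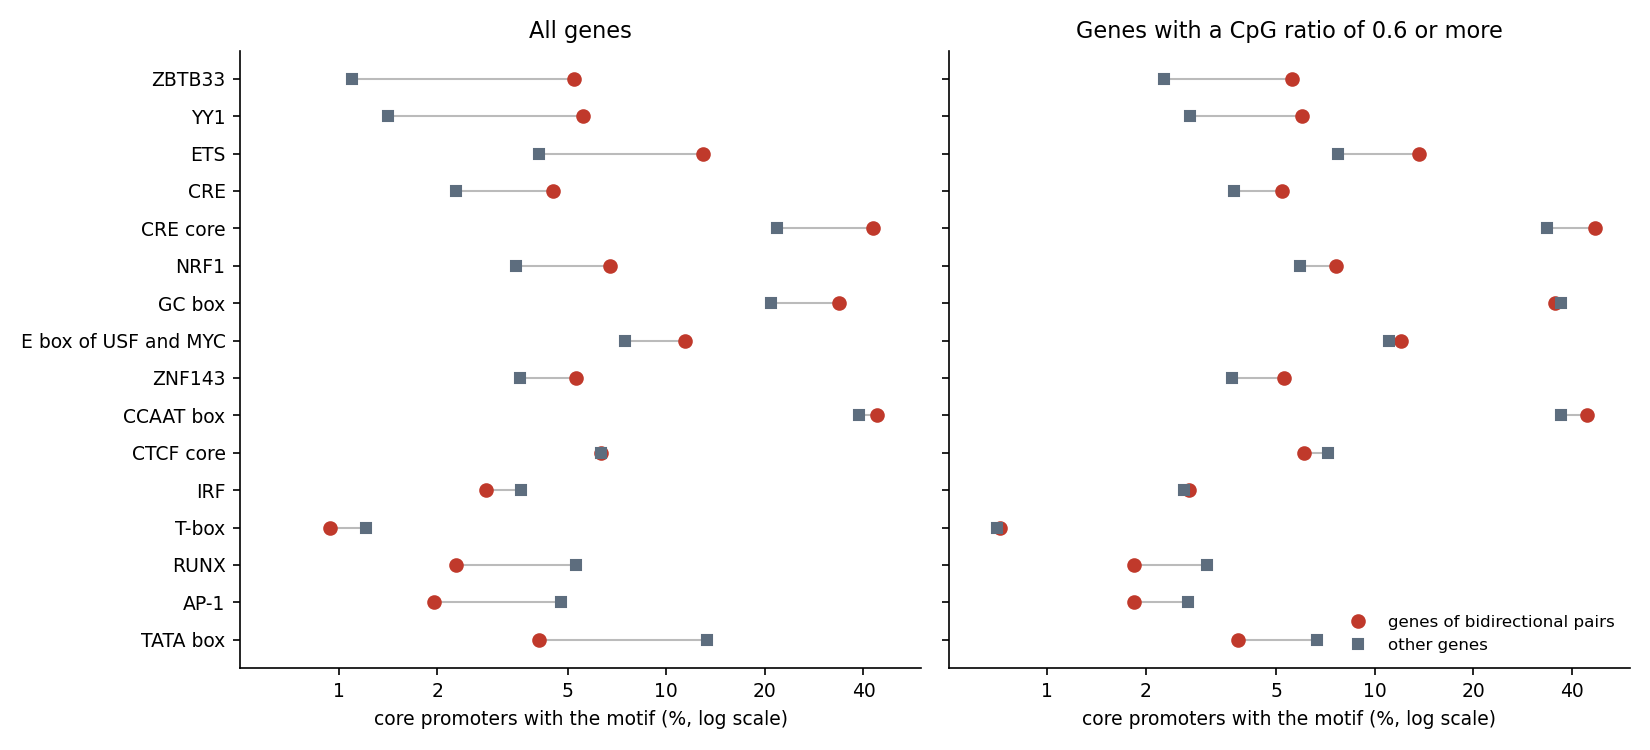
Share of core promoters with each motif (%, log scale) in genes of bidirectional pairs and in other genes, among all genes (left) and among genes with a CpG ratio of 0.6 or more (right). Among all genes ZBTB33 stands at 5.24% of pairs and 1.10% of other genes, and the TATA box at 4.10% of pairs and 13.3% of other genes.

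Matches in open promoters lay in footprints at rates that varied widely between motifs. A match was counted as covered where at least 50% of it lay in a footprint, and a match shared by both genes of a pair was counted once. Of 88 NRF1 matches in pairs 92.0 ± 5.21% were covered, against 88.3 ± 4.76% of 766 in other promoters, and of 35 CRE matches 93.3 ± 6.60%, against 85.9 ± 8.23% of 351. GC boxes were covered in 74.8 ± 9.70% of 440 matches in pairs and 67.6 ± 12.8% of 4861 in other promoters, a difference of 7.15 ± 3.10 percentage points within libraries. ZBTB33 matches were covered in 71.2 ± 9.46% of pairs' matches and 72.0 ± 13.5% of other ones. ETS matches were covered in 64.4 ± 14.4% in pairs and 65.6 ± 12% in other promoters. CCAAT boxes, of 5 letters, were covered in 24.5 ± 6.87% of 675 matches in pairs and 19.7 ± 5.40% of 5497 in other promoters, a difference of 4.80 ± 1.49 points. Of all bases in the 500 bp upstream, footprints covered 17.6% in genes of pairs and 11.0% in other genes, a difference of 6.54 ± 0.891 points. Motifs were searched in another stretch, from 250 bp upstream to 50 bp downstream. The part of this difference over all bases in the differences by motif was not tested. The latter went both ways. TATA boxes differed by 11.7 ± 2.53 points, with 38 matches in pairs, ETS matches by -1.15 ± 3.57 and CTCF matches by -3.56 ± 4.95.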

How the data were processed

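DNase-seq of 3 libraries was analysed as deposited. Per the labels, the assembly is mm10; aligner and callers of peaks and footprints: not given in the sources used here. The authors deposited, per library, 2 lists of peaks with a signal per peak, footprints with a constant score, and intervals with the q-value (FDR) of their cut rate. The larger list of peaks was used, and the smaller one as an alternative. The signal served for ranks within a library only, and the footprint score was not used.

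Gene 5' ends were those of GENCODE M21 on GRCm38, 1 per gene, on 21 chromosomes; no coordinate of the files lay outside the reference. Peaks and footprints were counted with a minimum overlap of 1 bp (Python 3.11.15, pandas 2.3.3, pysam 0.24.0, bedtools 2.31.1 to merge intervals). Sequence came from the GRCm38 genome. Values are means ± SD over the 3 libraries, which are the units of the exact sign-flip test. CpG ratios were compared in steps of 0.2, with the shares of other promoters weighted by the numbers of pairs. The method was tested on simulated data.

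Members, gene lists and motifs were chosen with earlier results of these data known. Named pairs were the 8 with the highest and the 4 with the lowest mean percentile and the 4 with the most footprints among pairs open in all 3 libraries, the 3 highest and up to 2 closed pairs of each gene list, up to 6 open in part by percentile and up to 8 closed by alphabet. Hist1h2bq/Hist1h2ao was named after its values were seen. 1 pair that the rule named is not reported here. Alternatives changed the peak list, peak height, overlap, flank, distance limit, window, gene models and annotation, and left out each replicate.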

Additional observations from a re-analysis of the deposited data

How the results depend on the processing

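Under the alternatives run, the differences between pairs and other promoters kept their direction for open share, peak percentile, footprints per window and footprints per 100 bp of peak. Peaks per open window did not. With a distance limit of 200 bp that difference was -0.00507, with each gene taken over 500 bp on each side -0.00404, with a limit of 500 bp 0.0445, with 1000 bp on each side 0.0540, and with the 5' ends of APPRIS principal transcripts, an alternative added after seeing the data, 0.134. Footprints per 100 bp of peak differed by 0.191 with the smaller peak list, 0.161 with the higher 50% of peaks, 0.339 with a limit of 200 bp and 0.335 with genes as units. The open share differed by 50.4 percentage points with the higher 50% of peaks, 41.0 without sensory receptor genes, and 40.2 where other genes counted as open at any annotated start, also added after seeing the data. Weighted by CpG ratio it differed by 22.8 with the higher 50% of peaks, and weighted by GC percent in place of CpG by 25.1. The percentile difference was 8.84 with the higher 50% of peaks. The cause of these moves was not tested. Leaving out each replicate in turn gave differences from 43.1 to 46.0 points in open share, 13.8 to 17.0 weighted by CpG ratio, 6.42 to 7.39 in percentile, 0.0876 to 0.116 in peaks per window, 2.48 to 3.09 in footprints per window and 0.249 to 0.293 per 100 bp of peak; a mean of 3 moves little when 1 is left out, so this shows little about stability.

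Of 179 percentiles of 46 named pairs under other peak lists, overlaps and flanks, 168 stayed within 1 SD and 11 fell by more. All 11 were with the smaller peak list, where Nup62cl/Pih1h3b fell to 0.536, against 7.46 as reported. Values within 1 SD could also be lower with that list, as at H2-T22/Gm6034 with 79.1 against 85.1. With other overlaps and flanks the same strongest peak was mostly ranked in the same list, so those values show little about stability. Without a peak in every replicate there was no value for Tmtc3/Cep290, Grik5/Zfp574 and Kctd19/Lrrc36 with the smaller list, nor for Rad51c/Tex14 and Mrps18b/Ppp1r10 with 250 bp on each side. With APPRIS principal transcripts, 738 of 784 pairs (94.1%) were open in all 3 replicates. Depth is unknown, and replicate 1 had 40484 peaks, against 84564 in replicate 2. Samples could not be paired across groups because they form only 1 group. Pairs and other promoters were compared within each library throughout.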
